A study of Mus musculus with 15 samples.

Results

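The lysyl oxidases and the elastic fibre genes were followed in the lungs of 15 mice, with 5 mice in each of 3 groups. The 10 genes were Lox, Loxl1, Loxl2, Loxl3, Loxl4, Eln, Fbn1, Fbln5, Efemp2 and Mfap4. A gene was read from a row of the array table that carried its symbol alone, and where a gene had several such rows, the row was chosen by its mean log2 intensity over all 15 arrays. This left 7 of the 10 genes, out of 19934 genes with a row of their own. The only row of Loxl2 also carried the symbol of another gene, and Fbn1 and Efemp2 had no row named for them in the annotation used. These 3 genes were not analysed here.

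All mice were male C57BL/6N, were anaesthetised with ketamine and acepromazine, and received an arterial line and a tracheal tube. Control mice breathed synthetic air on their own for 6 h. Air ventilated mice were on the ventilator for 6 h, with tidal volumes of 12 ml/kg and an end-expiratory pressure of 2 cmH2O, and H2S ventilated mice received the same ventilation with 80 ppm hydrogen sulfide added to the air. The comparisons therefore address what ventilation did to these transcripts and whether inhaled H2S altered it. No group went without anaesthesia and surgery, and mice that breathed H2S spontaneously were not analysed here. One lobe, the inferior right lobe, was measured per mouse on an Affymetrix whole-transcript array.

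Elastic fibres give the lung its recoil. Tropoelastin, the product of Eln, is laid down on a scaffold of fibrillin microfibrils with the help of adaptor proteins such as fibulin-5 (Fbln5) and fibulin-4 (Efemp2). Lysyl oxidases, which are copper-dependent amine oxidases, then oxidise lysine side chains so that elastin, and likewise collagen, becomes cross-linked and insoluble. In lung these genes are used mainly by fibroblasts, myofibroblasts and smooth muscle cells.

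The median intensity of an array lay between 184 and 187 in control mice, 179 and 187 in air ventilated mice and 180 and 185 in H2S ventilated mice. The second numbers of the mouse labels form 2 sets, 1 to 12 with 3 mice per group and 20 to 28 with 2 mice per group. Their meaning is not given. The sets differed at 6.26% of all 28361 rows. None of the 7 genes differed between the sets at an adjusted p under 0.05. The nearest was Mfap4 (-0.26 on the log2 scale, SE 0.08, adjusted p = 0.0638).

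A promoter sequence could be matched for 2 of the 7 genes, Loxl4 and Fbln5. That of Loxl4 is shown because Loxl4 was the enzyme besides Lox that was higher in H2S ventilated mice. The 250 bases before its RefSeq start site on the minus strand of mouse build GRCm38.p6, chr19:42612807-42613056, read as follows, with the letters CAGAC of the SMAD motif in capitals.
Loxl4 promoter: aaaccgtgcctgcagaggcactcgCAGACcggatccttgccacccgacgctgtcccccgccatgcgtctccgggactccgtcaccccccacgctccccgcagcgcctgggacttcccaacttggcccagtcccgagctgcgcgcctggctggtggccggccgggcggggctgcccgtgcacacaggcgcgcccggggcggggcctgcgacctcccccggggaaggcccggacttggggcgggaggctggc
G and C made up 76.0% of these bases. The SMAD motif, searched on both strands, was present 1 time, its first base 226 bases before the start, and 42.2% of 32851 promoter windows of this length held it. The other patterns searched on both strands were TGANTCA for AP-1 (in 6.75% of windows), the glucocorticoid receptor half-site AGAACA (16.1%), the hypoxia-inducible factor core ACGTG (16.6%) and GGAATG for TEAD (12.6%). These 4 patterns were not found in the Loxl4 window. A match describes letters and not a bound site.

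Among the 7 genes, Lox was higher and Loxl1 was lower after ventilation with air, and Lox and Loxl4 were higher after ventilation with H2S. Differences are given on the log2 scale with the SE of the limma fit to all 15 arrays, and p-values were adjusted by Benjamini-Hochberg over all 28361 rows. At an adjusted p under 0.05, 1 of the 7 genes was higher with air, where 1.56% of all rows were higher, and 1 was lower, where 1.89% of all rows were lower. With H2S, 2 of the 7 were higher, where 3.92% of all rows were higher, and 0 were lower, where 3.93% of all rows were lower. The median difference of the 7 genes was -0.12 with air and -0.06 with H2S, beside 0.01 and 0.00 over all rows. In bulk lung tissue, fewer cells of a type and less RNA per cell cannot be told apart.

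**Figure D1:**
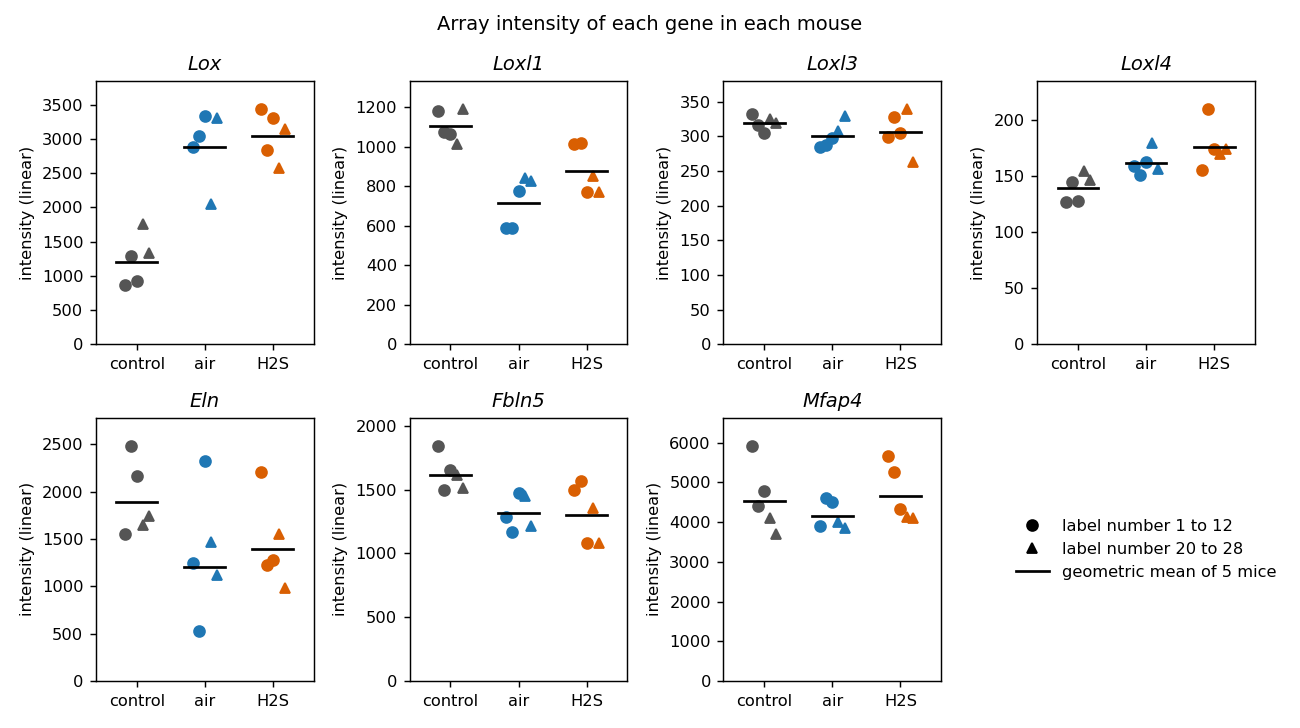
Linear array intensity (vertical axes, from 0) of 7 genes in control, air ventilated and H2S ventilated mice. Each symbol is 1 mouse, circles for label numbers 1 to 12 and triangles for 20 to 28, and the bar is the geometric mean of 5 mice. All ventilated mice lie above all controls for Lox, and Eln in air ventilated mice spreads from 533 to 2320.

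Lox, the founding enzyme of the family, was at an intensity of 872, 1287, 928, 1764 and 1330 in the 5 control mice. It was at 2888, 3047, 3340, 2052 and 3309 in the air ventilated mice and at 3436, 2836, 3314, 2583 and 3144 in the H2S ventilated mice. No ventilated mouse overlapped with a control, and the closest approach was between the control mouse 12_21 at 1764 and the air ventilated mouse 34_22 at 2052. Lox rose 2.41-fold with air (1.27, SE 0.18, 95% interval 0.90 to 1.65, adjusted p = 0.00183). It rose 2.55-fold with H2S (1.35, SE 0.18, 95% interval 0.97 to 1.72, adjusted p = 0.000399). The study's methods set limits on p, the false discovery rate and an effect size. With these limits applied to the limma p-values (p at most 0.005, adjusted p at most 0.1) and the effect size read as a change of at least 1.7-fold, Lox was the only one of the 7 genes that passed, and it did so in both comparisons. At these thresholds 0.342% of all rows were higher with air and 0.656% with H2S. The 2 ventilated groups overlapped in Lox, and their difference of 0.08 (95% interval -0.30 to 0.45, adjusted p = 0.997) did not pass. Within the mice numbered 1 to 12 the Lox difference was 1.61 with air and 1.65 with H2S, and within those numbered 20 to 28 it was 0.77 and 0.90, at adjusted p = 0.783 and 0.368 with 2 mice per group, a design in which 0 rows of the whole table passed with air and 2 with H2S.

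Loxl1, the family member that is targeted to elastic fibres and needed for their renewal, was at 1184, 1074, 1065, 1016 and 1191 in control mice. It was at 589, 588, 779, 840 and 825 in air ventilated mice and at 1013, 1018, 771, 853 and 771 in H2S ventilated mice. All 5 air ventilated mice were below all controls, whereas the H2S ventilated mouse 4_8 reached the control range. Loxl1 fell to 0.648 of the control level with air (-0.63, SE 0.12, 95% interval -0.88 to -0.37, adjusted p = 0.00829). With H2S the difference was -0.33 (SE 0.12, 95% interval -0.58 to -0.08, adjusted p = 0.113), which did not pass. The direct comparison of H2S with air gave 0.30 (95% interval 0.04 to 0.55, adjusted p = 0.735) for Loxl1, so the data did not separate the ventilated groups after adjustment. That comparison also split by label numbers, at 0.52 in mice 1 to 12 and -0.04 in mice 20 to 28.

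Loxl4, a further lysyl oxidase-like enzyme, was at 127, 145, 128, 155 and 147 in control mice. It was at 159, 151, 163, 180 and 157 in air ventilated mice and at 156, 210, 174, 170 and 175 in H2S ventilated mice. The H2S ventilated mice lay above all controls, but the lowest of them, mouse 1_4, was at 156 against 155 in the highest control. Loxl4 rose 1.26-fold with H2S (0.33, SE 0.09, 95% interval 0.15 to 0.52, adjusted p = 0.0267). With air, 4 of 5 mice were above all controls and the difference of 0.21 (SE 0.09, 95% interval 0.03 to 0.40, adjusted p = 0.258) did not pass. The difference between H2S and air was 0.12 (95% interval -0.06 to 0.31). The Loxl4 call with H2S is a narrow one. It was lost when either of the control mice 5_1 and 7_9 or either of the H2S ventilated mice 4_8 and 27_28 was left out, with differences of 0.27 to 0.34 and adjusted p between 0.0529 and 0.0751. Loxl4 had a second row, which was not chosen because its mean log2 intensity over the 15 arrays was lower. That second row differed by 0.37 (SE 0.11, adjusted p = 0.0747) in air ventilated mice and by 0.35 (SE 0.11, adjusted p = 0.0578) in H2S ventilated mice, in the same direction as the brighter row but without passing.

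Loxl3, the remaining enzyme with a row of its own, ranged from 305 to 332 in control mice, from 284 to 330 in air ventilated mice and from 263 to 339 in H2S ventilated mice. The 3 ranges overlapped. Air ventilated mice differed from control by -0.08 (adjusted p = 0.742), H2S ventilated mice differed by -0.06 (adjusted p = 0.736), and H2S and air differed by 0.02.

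Eln, which encodes tropoelastin, was at 1557, 2484, 2162, 1643 and 1742 in control mice. It was at 1247, 533, 2320, 1465 and 1116 in air ventilated mice and at 2206, 1220, 1282, 1548 and 986 in H2S ventilated mice. In both ventilated groups Eln had a larger SD between mice on the log2 scale than the other 6 genes (0.77 with air and 0.44 with H2S), and in air ventilated mice the highest value was 4.36 times the lowest. In each ventilated group 4 of the 5 mice were below all controls, and the remaining mouse, 12_10 with air and 1_4 with H2S, lay near the upper controls. The Eln difference from control was -0.65 (SE 0.30, 95% interval -1.29 to -0.01, adjusted p = 0.34) with air and -0.44 (SE 0.30, 95% interval -1.07 to 0.20, adjusted p = 0.479) with H2S. Leaving out 1 mouse at a time moved the Eln difference with air between -0.36, without the air ventilated mouse 11_6, and -0.89, without 12_10, and that with H2S between -0.31 and -0.60. Neither passed in limma, whereas the Bayes-regularised test of the study's methods (CyberT, on the 2 groups compared) placed Eln at adjusted p = 0.0318 with air and 0.0437 with H2S. At that threshold CyberT called 5.70% of all rows with air and 9.22% with H2S. H2S and air differed by 0.21 in Eln, with a 95% interval of -0.42 to 0.85.

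Fbln5, whose product tethers elastin to microfibrils and to cell-surface integrins, was at 1844, 1497, 1655, 1614 and 1511 in control mice. It was at 1289, 1167, 1478, 1454 and 1217 in air ventilated mice and at 1502, 1568, 1079, 1358 and 1086 in H2S ventilated mice. The 5 air ventilated mice were below all controls, while 2 H2S ventilated mice reached the control range. The Fbln5 difference was -0.30 with air (SE 0.11, 95% interval -0.54 to -0.06, adjusted p = 0.202) and -0.31 with H2S (95% interval -0.56 to -0.07, adjusted p = 0.111), and neither passed. H2S and air differed by -0.01 (95% interval -0.26 to 0.23). CyberT gave an adjusted p of 0.0419 for Fbln5 with air. Counting Loxl1 and Fbln5, 2 of the 7 genes had air ventilated mice entirely below the controls, as did 2.9% of all rows, and 1 gene, Lox, had them entirely above, as did 2.65% of all rows. With H2S, 2 of the 7 genes were entirely above the controls, as were 4.11% of all rows, and 0 were entirely below, as were 4.09% of all rows.

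Mfap4, a glycoprotein associated with microfibrils, ranged from 3707 to 5919 in control mice with a median of 4415. It ranged from 3848 to 4612 with a median of 3994 in air ventilated mice and from 4103 to 5675 with a median of 4331 in H2S ventilated mice. The groups overlapped throughout. The Mfap4 difference was -0.12 (95% interval -0.38 to 0.14, adjusted p = 0.789) with air, 0.04 (95% interval -0.22 to 0.30, adjusted p = 0.916) with H2S and 0.16 (95% interval -0.10 to 0.43) between H2S and air.

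**Figure D2:**
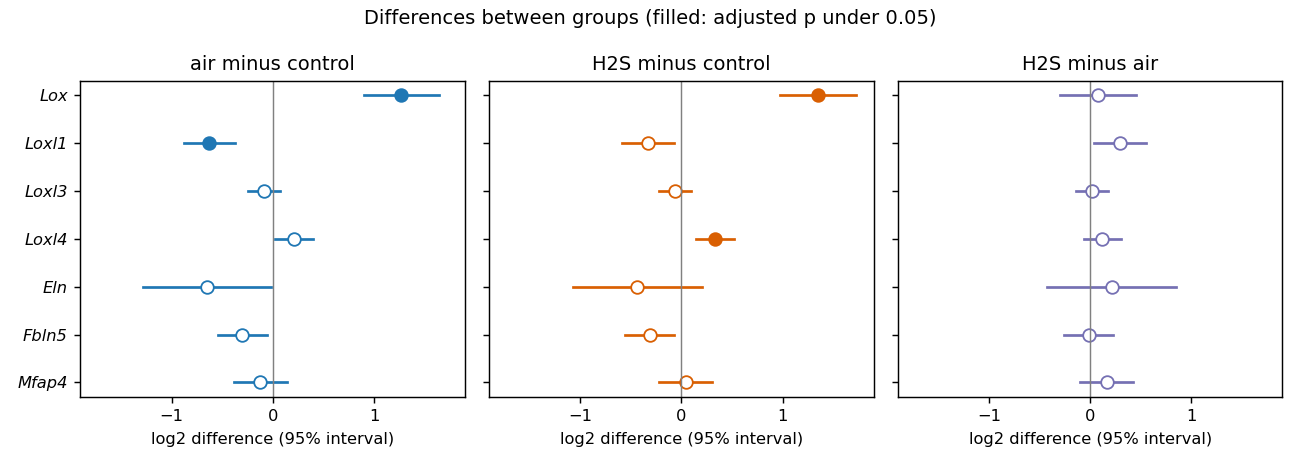
Log2 difference (horizontal axes) of 7 genes in the 3 comparisons, with 95% intervals from limma as lines and filled points at an adjusted p under 0.05. Lox and Loxl1 are filled for air minus control, Lox and Loxl4 for H2S minus control, and no point is filled for H2S minus air.

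Between H2S ventilated and air ventilated mice, 0 of the 7 genes passed in limma, where 0.0776% of all rows passed in either direction, and 1 gene, Loxl1, had an unadjusted p under 0.05. CyberT also called 0 of the 7, where it called 0.504% of all rows. Both comparisons with control used the same 5 control mice, so that their differences are not independent of each other.

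Further genes of elastic fibre assembly and turnover were read in 7 lists. Of 24 other elastic fibre and microfibril genes, 3 were lower with air (1.89% of all rows), and with H2S 3 were lower (3.93% of all rows) and 2 higher (3.92% of all rows), with list medians of -0.08 and -0.07. Mmrn2, an endothelial extracellular matrix protein of the emilin family, fell by 0.60 (SE 0.11, adjusted p = 0.00738) with air and fell by 0.45 (adjusted p = 0.0195) with H2S. Adamts10, a secreted metalloproteinase associated with fibrillin microfibrils, fell by 0.37 (adjusted p = 0.047) with air and fell by 0.54 (adjusted p = 0.00295) with H2S. Mmrn1, the multimerin of platelets and endothelium, rose by 0.44 with H2S (adjusted p = 0.0137) and was at 0.33 with air (adjusted p = 0.107). The remaining members that passed, named after their values were seen, were Adamtsl3, lower at -0.52 with air and -0.44 with H2S, and Adamtsl2, higher at 0.28 with H2S. None of these genes encodes elastin or a fibrillin.

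Among 13 genes that process pro-lysyl oxidase or supply its copper, 1 was lower with air (1.89% of all rows). With H2S 0 passed in either direction (7.86% of all rows), and 5 had an unadjusted p under 0.05. The one that passed was Tll1, a protease of the BMP1 family that can activate pro-lysyl oxidase, which fell by 0.36 (adjusted p = 0.0437) with air and was at -0.24 (adjusted p = 0.133) with H2S. The medians of this list were -0.13 and -0.10. Of 11 fibrillar collagens, 0 passed in either comparison, where 3.44% of all rows passed with air and 7.86% with H2S. A count of 0 in a list of this length is near those shares. The medians were -0.06 and -0.07, with 2 genes at an unadjusted p under 0.05 in each comparison.

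Of 10 other enzymes that modify or cross-link collagen and matrix, 1 was higher with air (1.56% of all rows), and with H2S 3 were higher (3.92% of all rows) and 1 lower (3.93% of all rows). P4ha2, a collagen prolyl 4-hydroxylase subunit, rose in air ventilated mice by 0.63 (SE 0.14, adjusted p = 0.0189) and in H2S ventilated mice by 0.89 (SE 0.14, adjusted p = 0.00136). Tgm1 and Tgm2, transglutaminases that join proteins through glutamine and lysine, rose with H2S by 0.90 (adjusted p = 0.00287) and 0.49 (adjusted p = 0.016), and with air they were at 0.36 (adjusted p = 0.312) and 0.32 (adjusted p = 0.176). Pxdn, the peroxidasin that cross-links collagen IV, fell with H2S by 0.29 (adjusted p = 0.0425) and was likewise named after its value was seen. The median of the list was -0.01 with air and 0.20 with H2S. In none of these genes did H2S and air differ at an adjusted p under 0.05.

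Of 12 elastin-degrading proteases, 1 was lower with air (1.89% of all rows), and with H2S 1 was lower (3.93% of all rows) and 1 higher (3.92% of all rows). Mmp12, the macrophage elastase, fell by 0.35 (adjusted p = 0.0359) in air ventilated and fell by 0.31 (adjusted p = 0.039) in H2S ventilated mice, and Ctsl, cathepsin L, rose by 0.27 with H2S (adjusted p = 0.031). Of 8 inhibitors of such proteases, 1 was higher (1.56% of all rows) and 1 lower (1.89% of all rows) with air, and with H2S 2 were higher (3.92% of all rows) and 0 lower (3.93% of all rows). Timp3, a matrix-bound inhibitor of metalloproteinases, rose in air ventilated mice by 0.44 (SE 0.08, adjusted p = 0.00522) and in H2S ventilated mice by 0.55 (SE 0.08, adjusted p = 0.000548). Serpinb1a, an inhibitor of neutrophil serine proteases, fell by 0.53 (adjusted p = 0.0101) with air and was at -0.34 (adjusted p = 0.0615) with H2S. Timp1, a secreted metalloproteinase inhibitor, was at 0.04 (adjusted p = 0.972) with air and rose by 0.70 (adjusted p = 0.0107) with H2S. The direct difference between H2S and air in Timp1 was 0.65 (SE 0.16, adjusted p = 0.212).

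Of 15 TGF-beta pathway genes and other regulators of lysyl oxidase and elastin transcription, 1 was higher with air (1.56% of all rows) and 3 were higher with H2S (3.92% of all rows), and 0 were lower in either comparison (1.89% and 3.93% of all rows). Ccn2, the connective tissue growth factor, rose in air ventilated mice by 0.57 (SE 0.10, adjusted p = 0.00677) and in H2S ventilated mice by 0.60 (SE 0.10, adjusted p = 0.00245). Hif1a, the oxygen-regulated transcription factor subunit, rose by 0.38 (adjusted p = 0.017) with H2S, and Skil, a repressor of SMAD signalling, rose by 0.35 (adjusted p = 0.0191). Hif1a and Skil were at 0.10 and 0.13 with air, and neither differed between H2S and air at an adjusted p under 0.05.

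**Figure D3:**
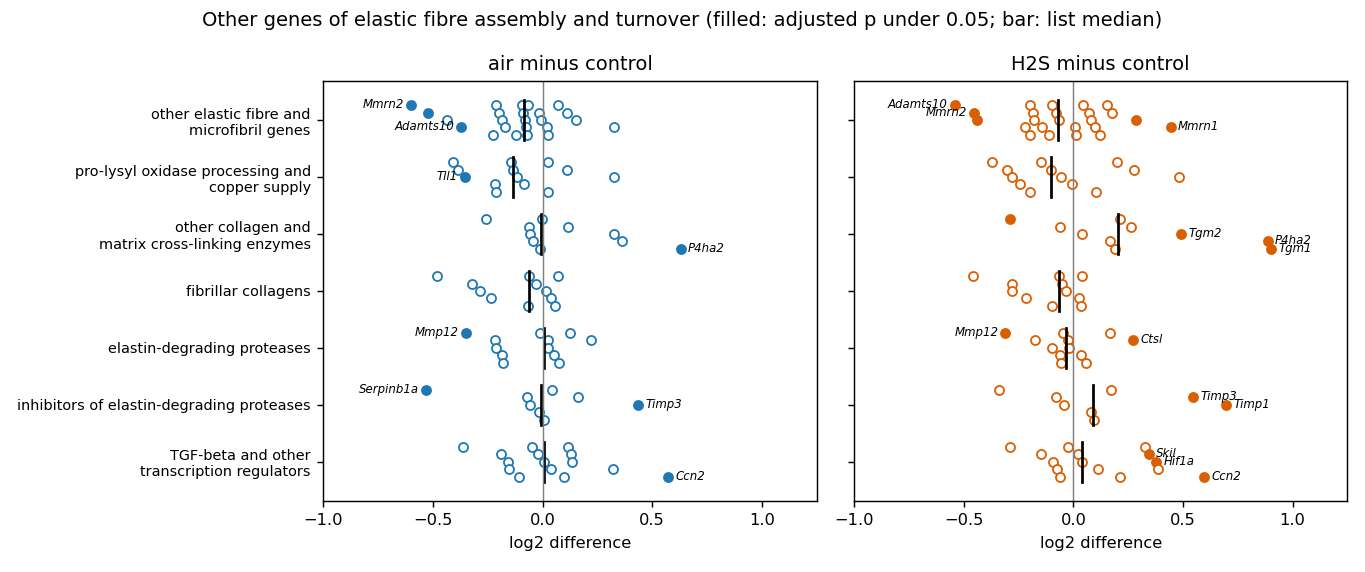
Log2 difference from control (horizontal axes) of the genes of 7 lists with air and with H2S. Each circle is 1 gene, filled at an adjusted p under 0.05 in limma, and the black bar is the list median. P4ha2, Timp3 and Ccn2 are filled to the right in both panels, Mmrn2, Adamts10 and Mmp12 to the left, and no fibrillar collagen is filled.

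Markers of the cells that make these fibres were read beside them. Normalized array intensities do not reach 0 and no background level was set, and single values ranged from 2505 to 3377 for Pdgfra of fibroblasts and from 3521 to 5539 for Acta2 of smooth muscle, and those of the cartilage markers Acan and Matn1 from 38.1 to 63.7 and from 36.4 to 60.5. Of 8 fibroblast markers 0 passed in limma in either comparison, where 3.44% of all rows passed with air and 7.86% with H2S. Of these markers, 1 and 3 had an unadjusted p under 0.05. Their summed intensity ranged from 11508 to 13650 in control mice, from 11611 to 12758 with air and from 12150 to 14134 with H2S. The markers did not move alike. In the same order Tcf21 ranged from 699 to 1257, 437 to 714 and 487 to 777, and Dcn from 3424 to 4207, 4133 to 4499 and 4079 to 4955. Of 7 smooth muscle markers Acta2 was lower with H2S (-0.35, adjusted p = 0.0284), where 3.93% of all rows were lower. The list median with H2S was -0.10 and the highest difference 0.09. The smooth muscle sums ranged from 8264 to 12641, 8325 to 10364 and 7949 to 9595 in the same order. Of 5 pericyte markers Pdgfrb was lower with H2S (-0.39, adjusted p = 0.0146), where 3.93% of all rows were lower. The list median with H2S was -0.13 and the highest difference 0.17. The pericyte sums ranged from 4050 to 4700, 3350 to 4187 and 3488 to 4164. Pdgfrb held a large part of these sums, at 2208 to 2433, 1539 to 2169 and 1665 to 1982. The part of these markers in the differences of Lox, Loxl1 and Loxl4 was not tested.

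Of 5 endothelial markers, Kdr and Tek were lower in both comparisons, Kdr at -0.58 and -0.83 and Tek at -0.45 and -0.58. The other 3 markers did not pass. Of all rows, 1.89% were lower with air and 3.93% with H2S. In control, air ventilated and H2S ventilated mice, Vwf ranged from 1312 to 1723, 1366 to 2200 and 1512 to 1895. Cdh5 ranged from 5740 to 6714, 5752 to 6444 and 5870 to 6979 in the same order. Pecam1 ranged from 3422 to 4074, 3319 to 3655 and 3177 to 3605. The sums of the 5 ranged from 16544 to 19168 in control mice, 15355 to 16894 with air and 14664 to 15879 with H2S. Of 5 cartilage markers Chad was lower with H2S (-0.61, adjusted p = 0.0318), where 3.93% of all rows were lower. The cartilage sums ranged from 1599 to 2232, 1067 to 1497 and 1113 to 1599. Chad held most of these sums, at 1110 to 1875, 643 to 1066 and 733 to 1114. In the other 4 the groups overlapped, with Col2a1 at 177 to 230, 165 to 235 and 165 to 241. Of 5 markers each of alveolar type II and type I cells, Abca3 (-0.31) and Rtkn2 (-0.49) were lower with H2S, where 3.93% of all rows were lower. These were the lowest differences of their lists. The list medians with H2S were 0.02 for type II and -0.07 for type I, and the highest differences were 0.05 and 0.17. Of 4 leukocyte and macrophage markers Marco was higher with H2S (0.52), where 3.92% of all rows were higher. Ptprc went the other way without passing (-0.47). Ptprc ranged from 978 to 2063 in control mice and from 691 to 1368 with H2S. In that list 3 of the 4 had an unadjusted p under 0.05 with H2S. Of 3 mesothelial markers 0 passed in either comparison (3.44% of all rows with air and 7.86% with H2S), with 0 at an unadjusted p under 0.05. Across these last 4 lists the summed ranges of the groups overlapped. The part of the endothelial and cartilage markers in the lower Loxl1 and Mmrn2 and in the values of Eln and Fbln5 was not tested.

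Over the 15 mice, the genes whose log2 intensity was most like that of Lox, among 19933 other genes, were Fkbp5 (Pearson r = 0.98), Lpar1 (0.97), Mmp8 (0.97), Klhl2 (0.96) and Serinc3 (0.96), where the median gene was at 0.01. Such an r includes the difference between controls and ventilated mice that the points share. After the group means were removed, r with Lox was 0.86 for Fkbp5, 0.84 for Lpar1, 0.80 for Mmp8, 0.77 for Klhl2 and 0.87 for Serinc3. Fkbp5, a cochaperone of the glucocorticoid receptor, was at 921 in the control mouse 12_21 and at 1434 in the air ventilated mouse 34_22, the highest control and the lowest ventilated value of that gene, as these mice also were for Lox. Lpar1, a receptor for lysophosphatidic acid, was at 600 and 662 in the same pair of mice, again the highest control and the lowest ventilated value.

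The genes most like Eln were Col3a1 (r = 0.90), Zfp365 (0.88), Piezo2 (0.88), Sema3e (0.87) and Mcam (0.86), where the median gene was at -0.04. With group means removed, these were 0.93, 0.86, 0.87, 0.85 and 0.82, so that the likeness to Eln lay in the mice within each group. Col3a1, the chain of type III collagen, was at 377 in the air ventilated mouse 11_6, in which Eln was at 533, and at 649 in mouse 12_10, in which Eln was at 2320. In the H2S ventilated group Col3a1 was highest in mouse 1_4, at 663, and lowest in mouse 27_28, at 403, and Eln was highest and lowest in the same mice. Col3a1 did not pass in either comparison with control, at -0.48 (adjusted p = 0.0858) with air and -0.46 (adjusted p = 0.0621) with H2S. All air ventilated mice were nevertheless below all controls in Col3a1, at 377 to 649 against 659 to 774, as were 2.9% of all rows. With H2S, mouse 1_4 reached the control range. These correlations are descriptions over mice measured on one array each, and the genes were picked for them.

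**Figure D4:**
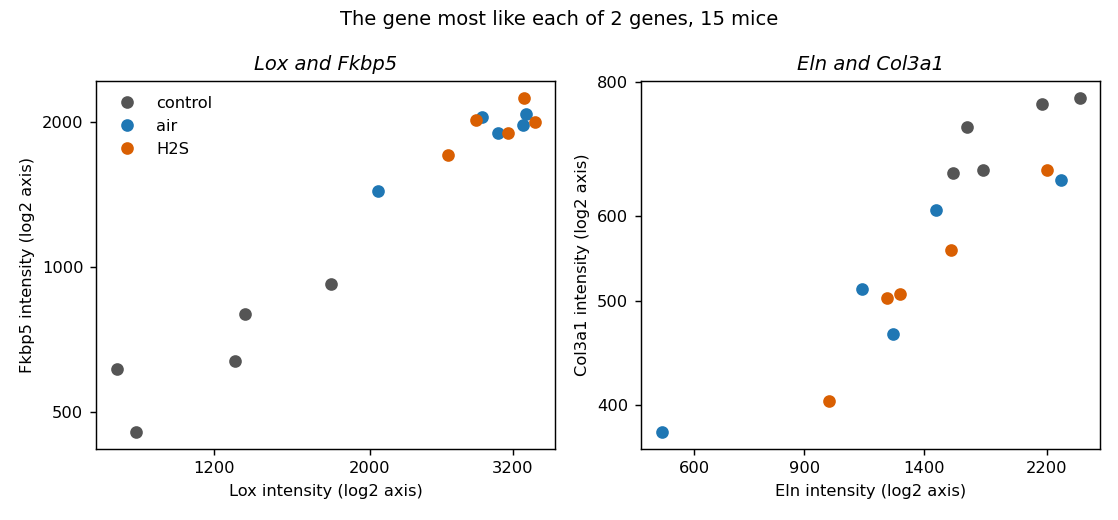
Linear intensities on log2 axes of Lox against Fkbp5 and of Eln against Col3a1, 1 point per mouse and 15 mice, coloured by group. For Lox the controls and the ventilated mice form separate groups of points. For Eln the points rise with Col3a1 from mouse 11_6 at 533, and the Eln ranges of the 3 groups overlap. On the Col3a1 axis all air ventilated mice lie below all controls, at 377 to 649 against 659 to 774. The H2S ventilated mice, at 403 to 663, reach the control range.

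Among themselves the 7 genes were compared pair by pair within groups. Of 21 pairs, 0 passed a two-sided permutation test after Benjamini-Hochberg adjustment over the pairs, and 2 had an unadjusted p under 0.05. Loxl1 and Fbln5 had r = 0.67 (permutation p = 0.0209, adjusted p = 0.299) and rho = 0.65 (permutation p = 0.0249, adjusted p = 0.523), and r was 0.58 without the 2 mice farthest from the median of Loxl1. Fbln5 and Mfap4 had r = 0.61 (permutation p = 0.0284, adjusted p = 0.299) and rho = 0.57 (permutation p = 0.062, adjusted p = 0.561), with r = 0.58 without the 2 farthest mice. Lox and Eln, the enzyme and its substrate, had r = -0.01. The pairs ranged from -0.36 to 0.67 with a median of 0.15, and 15 of the 21 were above 0.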

How the data were processed

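The authors hybridised RNA of 1 lung lobe per mouse to Affymetrix whole-transcript arrays and processed the scans in their own software, with background correction by control probes, quantile normalization and RMA summarisation. The deposited values are linear intensities, 1 per row and array, and no further scaling is stated. Intensities were converted to log2 here. The 28361 rows of 15 arrays were fitted in limma 3.58.1 under R 4.3.3, with 3 groups of 5 mice and no covariate, and p-values were adjusted by Benjamini-Hochberg over all rows, with 0.05 as the threshold. The script was tested on simulated data. Arrays have no read depth, and the number of mice sets the precision. Of the rows, 21780 carried 1 gene symbol, 1617 several and 4964 none in the platform annotation. Symbols are those of that annotation.

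The genes and all lists were chosen with earlier results of these data known. Named are the 10 genes, of each further list up to 3 genes with the smallest adjusted p among those passing against control (further ones are marked in the text), and the 5 genes most correlated with Lox and with Eln. Mfap1a had no row of its own and was not analysed here. Pairs of genes were tested with 1e+05 permutations within groups in Python 3.11.15 with numpy 2.4.6. Figures were drawn with matplotlib 3.10.9. No label is repeated, and each was taken as a separate animal. The second number of a label is not shared between groups. The first number is shared by the control mouse 12_21 and the air ventilated mouse 12_10. It is also shared by the control mouse 6_5 and the air ventilated mouse 6_2. The meaning of these numbers is not given, and no samples were paired. Alternatives were CyberT (confidence 15, window 101), a variance trend, array weights, only the groups compared, median scaling, repeated quantile normalization, bright rows only, all rows of a gene, 1 row per gene, the label-number sets or runs of 4 numbers as a block, each set alone, and each mouse left out.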

Additional observations from a re-analysis of the deposited data

How the results depend on the processing

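Of 585 values of single genes under the alternatives, 551 kept their direction and their side of the threshold. Some of them could not move. Averaging all rows changed only Loxl4, the one gene with more than 1 row, and leaving out a mouse of the group not compared left the difference itself unchanged. Lox passed in both comparisons with control, and Loxl1 with air, under 27 of 28 alternatives, the exception being the mice numbered 20 to 28 alone, with 2 per group. With air, 2 of the 7 genes passed, against 4 by CyberT (Eln and Fbln5 added) and 0 in the mice numbered 20 to 28. With H2S, 2 passed, against 4 by CyberT (Loxl1 and Eln added), 4 after repeated quantile normalization (Loxl1 and Fbln5 added), 1 with only the groups compared, 1 with bright rows only, where Loxl4 is not among the rows kept, 1 in the mice numbered 1 to 12 and 0 in those numbered 20 to 28. Leaving out single mice gave 1 to 2, and Loxl4 passed under 20 of 27 alternatives. Over all rows, CyberT called 1617 with air and 2616 with H2S, against 977 and 2228 in limma, repeated quantile normalization 2637 with H2S, and the mice numbered 20 to 28 gave 0 and 2, so that their counts of 0 say nothing about these genes. The cause of these shifts was not tested. Reversals of direction touched values that passed neither way. Mfap4 was at 0.00617 with air in the mice numbered 20 to 28, and with H2S at -0.0300 after repeated quantile normalization and at -0.0316 to 0.137 without single mice. Between H2S and air in the mice numbered 20 to 28, Loxl1 was at -0.0374, Loxl3 at -0.0933 and Eln at -0.0491, and Fbln5 was at 0.0641 in those numbered 1 to 12. Loxl3 was at -0.00753 with runs of 4 numbers as a block. Without single mice, Lox ranged from -0.0441 to 0.138, Loxl3 from -0.0147 to 0.0771, Eln from -0.0809 to 0.450 and Fbln5 from -0.0809 to 0.0537 in that comparison. The groups share no second label number, the number from which the runs were formed. With runs of 4 consecutive numbers as a block, the counts of genes passing were 2 with air, 2 with H2S and 0 between them, with Lox at an adjusted p of 0.0118 with air and 0.00372 with H2S, Loxl1 at 0.0373 with air and Loxl4 at 0.0239 with H2S.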
